A study of Mus musculus with 2 samples.

Results

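Granzymes are serine proteases that cytotoxic lymphocytes store in secretory granules, and perforin, encoded by *Prf1*, is the pore-forming protein that lets them into a target cell. Granzyme B cleaves after aspartate and starts apoptosis through caspases, and granzymes A and K cleave after basic residues. Mice carry further granzyme genes next to *Gzmb* that are known from activated T and NK cells. The 9 genes described here, 8 granzymes (*Gzma*, *Gzmb*, *Gzmc*, *Gzmd*, *Gzme*, *Gzmf*, *Gzmg* and *Gzmk*) and *Prf1*, were taken by symbol from the 31253 genes listed for each library, and all 9 had UMIs (unique molecular identifiers, each standing for one captured mRNA) in both. They were picked with measured values of these data in view, so their levels are given as a description without a test.

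The cells were Cd45+ immune cells sorted from B16-F10 melanomas, a mouse tumor line, and profiled by single-cell RNA-seq on the BD Rhapsody microwell system. C57BL/6 mice labelled *Irg1*+/+ or *Irg1*-/- received 200000 tumor cells under the skin, the *Irg1*-/- line having been crossed onto C57BL/6J, and on day 10 a piece of 100 mm3 from the tumor of each of 3 mice of one genotype was pooled, and 6000 Cd45+ cells were sorted from the pool. Each genotype was therefore 1 library of pooled mice, no spread between mice could be measured, and genotype, pool and preparation cannot be told apart. The files held 6408 cells and 43617546 UMIs for *Irg1*+/+ and 5896 cells and 36432067 UMIs for the library labelled *Irg1*-/-. After removal of cells with 200 or fewer genes or with 10% or more mitochondrial UMIs, 6284 and 5794 cells remained, with medians of 4528 and 4594.5 UMIs, and 36 barcodes occurred in both libraries.

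*Acod1*, the gene that *Irg1* names, encodes the itaconate-producing enzyme and is the gene targeted in these mice. Its level was 87.8 CPM (UMIs per 1e6 UMIs, mitochondrial genes left out) in *Irg1*+/+ and 108 CPM in the library labelled *Irg1*-/-. The log2 ratio was 0.30 (95% counting interval 0.23 to 0.36), so the mRNA did not separate the libraries in the direction of their labels. The part of the gene that was deleted is not stated in the sources used here, and a 3' tag outside a deleted part would not show it. All differences below are therefore between the *Irg1*+/+ library and the library labelled *Irg1*-/-. Intervals are exact, at the 95% level, and cover counting error only.

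Cell types were gated by UMIs of marker genes that are not granule genes. The NK gate (*Ncr1* and *Klrb1c*, with at most 1 *Cd3* UMI) held 238 and 431 cells. These were 3.79% (3.33 to 4.29) and 7.44% (6.78 to 8.14) of kept cells in *Irg1*+/+ and in the library labelled *Irg1*-/-. The CD8 gate held 338 and 169 cells, the CD4 gate 106 and 92, the regulatory T cell (Treg, *Foxp3*) gate 125 and 51, and the myeloid gate (*Csf1r*, *Adgre1*, *Cd14*) 1077 and 1325. Lists of markers that the gates did not use were summed as a check. The NK list (*Klre1*, *Klrk1*, *Klra4*, *Klra8* and *Tyrobp*, the most abundant) reached 4816 and 5384 CPM in the NK gate against 686 and 815 CPM in the CD8 gate, although *Tyrobp* also brought it to 1838 and 1839 CPM in the myeloid gate. The Treg list (*Il2ra*, *Ikzf2*, *Ctla4* and *Tnfrsf4*) was at 5809 and 4934 CPM in the Treg gate against 1362 and 1115 CPM in the CD4 gate. The macrophage list led by *Lyz2* was present in every lymphocyte gate, at 2132 and 2087 CPM in the NK gate and 2490 and 2338 CPM in the CD8 gate, and its part in the results was not tested.

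The sequences upstream of the *Gzmb* to *Gzmg* genes are shown first, because these 6 genes lie in one stretch of a chromosome, read in one direction, and yet had very different distributions over cells. They occupy chr14:56117626-56262260 on the minus strand of GRCm38, a stretch of 144.635 kb, in the order *Gzme*, *Gzmd*, *Gzmg*, *Gzmf*, *Gzmc*, *Gzmb* by rising coordinate. *Gzma* (chr13:113093825-113100981) and *Gzmk* (chr13:113171608-113225908) are neighbours on the minus strand of chromosome 13, and *Prf1* (chr10:61297833-61304680) is on the plus strand of chromosome 10. The gene identifiers in the files were ENSMUSG00000023132 for *Gzma*, ENSMUSG00000015437 for *Gzmb*, ENSMUSG00000079186 for *Gzmc*, ENSMUSG00000059256 for *Gzmd*, ENSMUSG00000022156 for *Gzme*, ENSMUSG00000015441 for *Gzmf*, ENSMUSG00000040284 for *Gzmg*, ENSMUSG00000042385 for *Gzmk* and ENSMUSG00000037202 for *Prf1*. The 120 bases before each gene start, from RefSeq on GRCm38.p6 and written 5′ to 3′ on the minus strand, are given below with matches to TGACGTCA (the cyclic AMP response element, which is its own reverse complement) and to ACCACA or its reverse complement TGTGGT (the core bound by Runx factors) in capitals.
*Gzmc*, chr14:56234658-56234777: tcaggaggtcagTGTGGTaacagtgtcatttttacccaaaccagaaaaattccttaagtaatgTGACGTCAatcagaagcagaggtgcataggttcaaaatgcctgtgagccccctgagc
*Gzmf*, chr14:56211408-56211527: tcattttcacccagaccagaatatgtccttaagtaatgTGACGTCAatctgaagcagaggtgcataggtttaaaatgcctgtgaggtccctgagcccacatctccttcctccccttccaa
*Gzmg*, chr14:56159580-56159699: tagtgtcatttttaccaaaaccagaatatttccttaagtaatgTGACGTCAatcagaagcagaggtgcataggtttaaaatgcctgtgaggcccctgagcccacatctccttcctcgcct
*Gzme*, chr14:56120626-56120745: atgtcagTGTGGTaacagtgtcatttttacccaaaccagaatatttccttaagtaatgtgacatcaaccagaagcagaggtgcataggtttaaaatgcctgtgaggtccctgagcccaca
*Gzmd*, chr14:56132594-56132713: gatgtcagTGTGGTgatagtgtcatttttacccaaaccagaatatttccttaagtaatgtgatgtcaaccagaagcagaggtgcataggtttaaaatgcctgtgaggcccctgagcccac
*Gzmb*, chr14:56262335-56262454: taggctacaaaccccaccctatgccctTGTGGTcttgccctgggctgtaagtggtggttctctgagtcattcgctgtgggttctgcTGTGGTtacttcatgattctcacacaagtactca

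Gene starts for these upstream sequences were those of RefSeq, which were not always the ends of the gene coordinates given above. The *Gzmb* window began at 56262335, past the gene end at 56262260, and the bases between were not searched. The windows of *Gzmd* (from 56132594) and *Gzmf* (from 56211408) began inside genes ending at 56132608 and 56211417. The cyclic AMP response element was present upstream of *Gzmc*, *Gzmf* and *Gzmg* and in no other of the 9 genes, within 250 bases of the RefSeq start. It was found upstream of 508 of 32851 RefSeq promoters (1.55%) searched over the same length on both strands. Counting from 1 at the first base of TGACGTCA, the aligned bases upstream of *Gzme* carried G5A and those of *Gzmd* carried C4T. The Runx core was found in 14.05% of promoters, with 2 matches within 250 bases for each of the 6 clustered genes, 1 for *Gzma* and *Prf1* and none for *Gzmk*. The upstream 250 bases of *Gzmc* to *Gzmg* were 84.4% to 95.6% identical over their 10 pairs, and those of *Gzmb* were 57.1% to 66.0% identical to them. The transcripts of *Gzmc* to *Gzmg* were also alike, at 76.1% to 94.8% identity.

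This likeness limits the counts of the clustered genes. Of all 50-base windows of the transcript, 21.5% for *Gzmd*, 19.1% for *Gzme*, 15.2% for *Gzmg*, 7.36% for *Gzmf* and 4.14% for *Gzmc* occurred unchanged in another of the 9 genes, and none did for *Gzma*, *Gzmb*, *Gzmk* and *Prf1*. In the last 400 bases, the part nearest a 3' tag, the shares were 12.3% for *Gzmd*, 9.12% for *Gzmf*, 6.84% for *Gzmg*, 6.27% for *Gzme* and 0% for *Gzmc*. Counts of *Gzmd* to *Gzmg*, and of *Gzmc* outside that stretch, are therefore uncertain wherever reads could have been assigned to a near-identical copy.

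*Gzma* was the leading granule mRNA of the NK gate and was far lower in every T cell gate. In the NK gate it reached 8020 CPM (7815 to 8229) in *Irg1*+/+. The library labelled *Irg1*-/- had 10693 CPM (10512 to 10877). In the CD8 gate it was at 866 CPM (820 to 914) and 453 CPM (408 to 502). NK cells thus carried 9.26 and 23.6 times the CD8 level, and 14.4 and 28.4 times with gates whose limits grow with the depth of the cell, a choice made after seeing the data. The CD4 gate had 146 and 169 CPM and the Treg gate 73.8 and 215 CPM, beside 90.8 and 171 CPM in the myeloid gate. CD4 cells of *Irg1*+/+ were at 1.61 times (1.16 to 2.18) the myeloid level, and for CD4 cells of the other library and Treg cells of both the interval of this ratio covered 1. Shares of cells with a UMI were compared after cells were thinned to 2000 UMIs and shallower cells were left out, which kept 200 of 238 and 330 of 431 NK cells, 279 of 338 and 130 of 169 CD8 cells and 948 of 1077 and 1203 of 1325 myeloid cells. Among these deeper cells *Gzma* was seen in 91.5% and 95.5% of NK cells, in 31.2% and 34.6% of CD8 cells and in 16.4% and 26.4% of myeloid cells. Over all cells of the gates, unthinned, the shares were 93.7% and 97.0%, 44.4% and 50.9%, and 34.2% and 55.4%.

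In the gates as fixed, *Gzmb* was at similar levels in NK, CD8 and Treg cells. Its CPM was 2060 (1956 to 2167) in NK, 1862 (1794 to 1932) in CD8 and 1919 (1805 to 2038) in Treg cells of *Irg1*+/+. In the library labelled *Irg1*-/- it was 2535 (2447 to 2625), 2425 (2318 to 2534) and 2488 (2279 to 2711). NK exceeded CD8 cells by a log2 ratio of 0.15 (0.05 to 0.24) and 0.06 (-0.02 to 0.15), and CD8 and Treg cells differed by -0.04 in both. In the depth-scaled gates *Gzmb* was instead highest in CD8 cells, at 2626 and 3868 CPM, followed by NK cells at 2265 and 2422 CPM and Treg cells at 1545 and 1960 CPM. CD8 cells then exceeded Treg cells by log2 0.77 (0.68 to 0.85) and 0.98 (0.87 to 1.09), so the likeness seen in the fixed gates did not hold there. CD4 cells without *Foxp3* stood apart, at 610 and 570 CPM. All 4 gates lay above the myeloid value of 97.6 and 104 CPM, by 21.1 and 24.3 times in NK cells, 19.7 and 23.9 times in Treg cells and 6.25 and 5.47 times in CD4 cells. After thinning, 74.0% and 79.7% of NK cells, 65.9% and 66.2% of CD8 cells and 74.5% and 67.4% of Treg cells had a *Gzmb* UMI, against 15.5% and 20.4% of myeloid cells. Unthinned, these shares were 79.0% and 84.5%, 74.6% and 71.0%, 81.6% and 82.4%, and 38.3% and 42.3%.

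*Prf1* did not accompany *Gzmb* in Treg cells. It was at 621 CPM (565 to 681) and 790 CPM (741 to 841) in NK cells and at 200 CPM (178 to 224) and 335 CPM (297 to 378) in CD8 cells. In Treg cells it was at 36.002 CPM (22.0 to 55.6) and 28.6 CPM (10.5 to 62.3), and in CD4 cells at 26.0 and 25.3 CPM, over a myeloid level of 12.9 and 18.4 CPM. CD8 cells exceeded Treg cells in *Prf1* by log2 2.47 (1.82 to 3.21) in *Irg1*+/+ and by 3.55 (2.41 to 5.01) in the other library. In the depth-scaled gates these ratios were 3.36 (2.85 to 3.92) and 4.42 (3.49 to 5.55). Within the NK gate, 66.2% and 71.1% of thinned cells with a *Gzmb* UMI also had a *Prf1* UMI, against 34.6% and 35.8% of those without. In the CD8 gate the shares were 30.4% and 31.4% against 7.37% and 13.6%. The cells were thinned to one UMI number, but cycling and other states of the cells were not matched.

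*Gzmk* was highest in the CD8 gate. Its CPM was 193 (172 to 217) and 144 (119 to 172) there, 58.4 and 46.5 in CD4 cells, 27.6 and 28.9 in NK cells and 1.80 and 19.1 in Treg cells, the last from 1 and 4 UMIs. The myeloid level was 3.36 and 3.64 CPM. Of thinned CD8 cells with *Gzma*, 43.7% and 26.7% also showed *Gzmk*, against 18.2% and 15.3% of those without. The intervals of the 2 shares were 33.1 to 54.7 against 13.0 to 24.4 in *Irg1*+/+ and overlapped in the other library. They count cells of one pool, with no replicate, so they do not show whether the difference would recur in other mice.

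**Figure D1:**
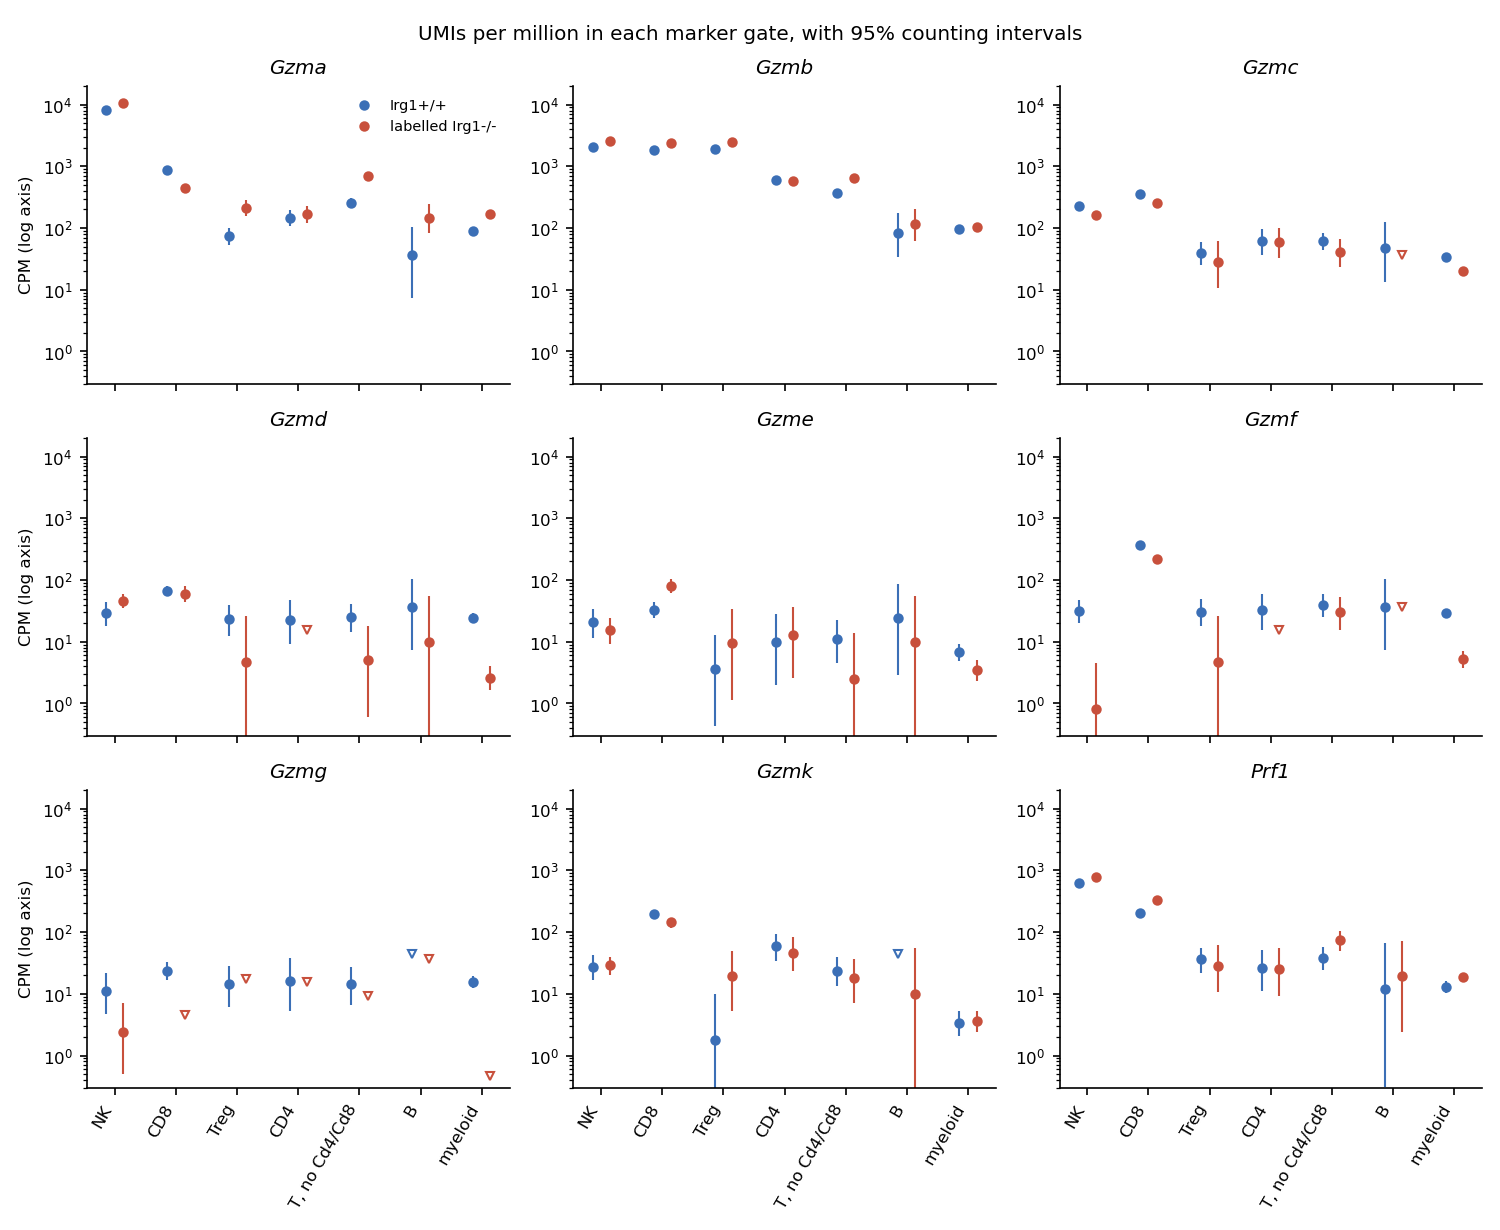
CPM (log axis) of each of the 9 genes in 7 marker gates, blue for the *Irg1*+/+ library and red for the library labelled *Irg1*-/-, 1 library each; lines are exact 95% counting intervals, cut at the lower edge of the axis, and open triangles mark the upper limit where no UMI was found. *Gzma* stands highest in the NK gate, *Gzmb* is at similar levels in the NK, CD8 and Treg gates as fixed, and *Prf1* is lower in the Treg gate than in the CD8 gate.

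*Gzmc* and *Gzmf* were the most abundant of *Gzmc* to *Gzmg* in the CD8 gate, but few cells carried them: 50% of the UMIs lay in 6 and 4 cells for *Gzmc* and in 4 and 4 cells for *Gzmf*. *Gzmc* was at 362 and 259 CPM in CD8 cells, 229 and 165 CPM in NK cells and 33.8 and 20.2 CPM in myeloid cells. *Gzmf* was at 375 and 215 CPM in CD8 cells, whereas in NK cells it was at 31.8 CPM (20.2 to 47.7) in *Irg1*+/+, no different within counting error from the 29.2 CPM of the myeloid gate, and at 0.804 CPM, 1 UMI, in the library labelled *Irg1*-/-. The 23 *Gzmf* UMIs of the *Irg1*+/+ NK gate lay in 22 cells, so nearly every one was alone in its cell. *Gzmd* was at 66.5 and 59.4 CPM and *Gzme* at 32.9 and 80.4 CPM in CD8 cells. Over the myeloid level these were 2.71 and 22.5 times for *Gzmd* and 4.78 and 22.9 times for *Gzme*, beside 10.7 and 12.8 times for *Gzmc* and 12.8 and 40.9 times for *Gzmf*. In *Irg1*+/+ 1 cell held 52 of the 101 *Gzmd* UMIs, and *Gzmd* was at 32.2 CPM without them. *Gzmg* was at 23.7 CPM in the *Irg1*+/+ CD8 gate and had no UMI in the CD8 gate of the library labelled *Irg1*-/-, where 3 UMIs would be 3.71 CPM. In the NK gate *Gzmc* stood 6.80 and 8.16 times and *Gzme* 3.01 and 4.35 times above the myeloid level.

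Summed over the 9 genes, the NK gate stood 35.1 and 43.5 times above the myeloid gate, the CD8 gate 12.7 and 12.1 times, the Treg gate 6.81 and 8.52 times and the CD4 gate 3.12 and 2.69 times. The order NK, CD8, Treg, CD4 was the same in both libraries, and no interval of one overlapped that of the next. The myeloid level was 10.4% to 23.3% of the level over all other cells for each gene with a UMI in that gate. *Trac*, the constant gene of the T cell receptor alpha chain, gave 17.0% and 17.1% by the same measure. Other genes differed more widely. The granule gene *Nkg7* gave 19.03% and 16.72%, *Klre1* of the NK list 14.99% and 8.97%, and the chemokine gene *Ccl5* 46.7% and 33.3%. The melanoma gene *Pmel* gave 22.9% and 30.5%, and *Cd3e*, which the gate excluded, gave 0% in both libraries. The part of free RNA, of doublets and of transcription in myeloid cells in those values was not tested. The myeloid gate took no cell with a *Cd3*, NK or B cell marker UMI, whereas the lymphocyte gates allowed 1 myeloid UMI. The effect of this unequal rule on the myeloid level and on the folds over it was not tested.

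Most granule mRNA lay outside the gates as fixed. Of 74917 and 69184 UMIs of the 9 genes, the NK gate held 10.7% and 25.7%, the CD8 gate 8.08% and 4.64%, the Treg gate 1.59% and 0.849% and the ungated cells 76.0% and 63.8%. The ungated class with most UMIs of the 9 genes, 1455 and 848 cells with both *Cd3* and myeloid UMIs, held 60.9% and 38.9%. The median depth of this class, 11574 and 11280 UMIs, was over that of any gate. The gates allowed 1 myeloid UMI whatever the depth of the cell. In 328 and 166 of these cells at least 80% of the *Cd3* and myeloid marker UMIs were *Cd3* UMIs, and T cell mRNA was high in them: *Trac* was at 1291 and 1192 CPM, *Cd8a* at 812 and 704 CPM and the macrophage gene *Lyz2* at 1131 and 1170 CPM, against 8566 and 7704 CPM in the cells with under 20%. Those T-rich cells carried *Gzmb* at 3129 and 4267 CPM and 29.5% and 23.0% of the UMIs of the 9 genes. The cells in between, 643 and 397 of them, held 27.5% and 13.3%, and whether they were doublets was not tested. With the depth-scaled gates the CD8 gate held 452 and 238 cells and 32.6% and 16.8% of the UMIs, and the NK gate 247 and 456 cells and 13.1% and 28.9%. A smaller part of the granule mRNA thus lay outside the depth-scaled gates than outside the fixed ones.

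**Figure D2:**
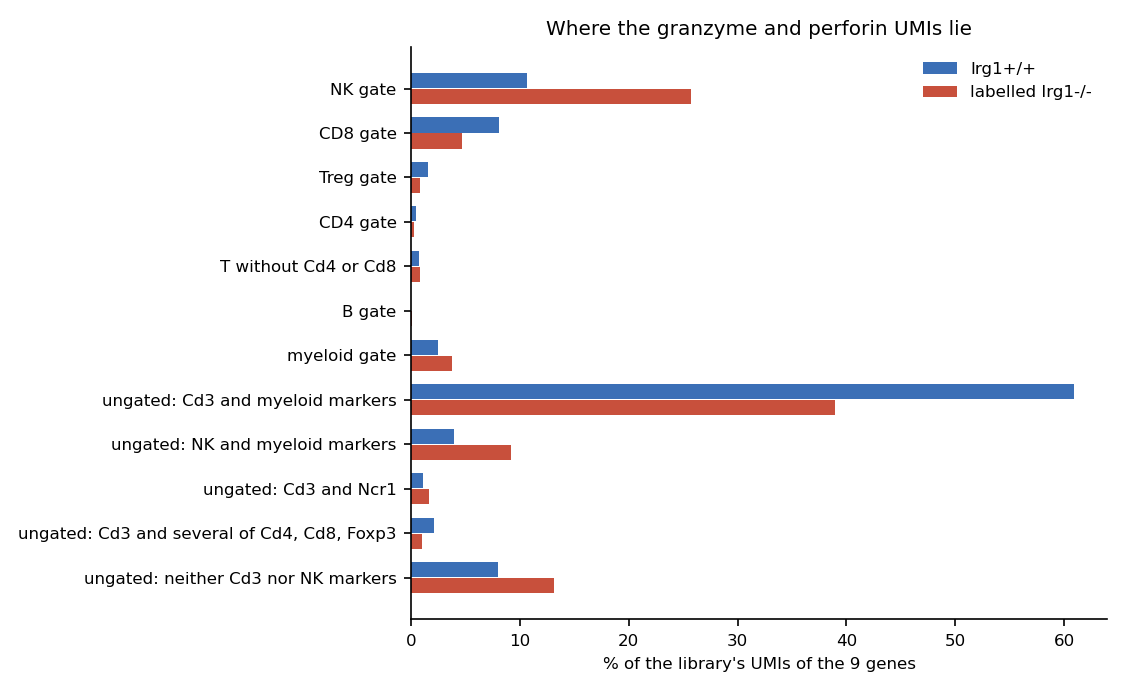
Percent of all UMIs of the 9 genes in each library (*Irg1*+/+ in blue, 74917 UMIs; labelled *Irg1*-/- in red, 69184 UMIs) that lay in each marker gate and in each class of ungated cells. The longest bars, 60.9% and 38.9%, belong to ungated cells with both *Cd3* and myeloid markers; 4 ungated cells with *Cd3* and B cell markers are left out.

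Inside the CD8 gate the genes split by state. Cells led by checkpoint receptors (*Pdcd1*, *Havcr2*, *Lag3*, *Tigit*; 127 and 68 cells) were set against cells led by naive and memory markers (159 and 85 cells). *Gzmb* was at 2596 against 1008 CPM in *Irg1*+/+ and at 3509 against 781 CPM in the library labelled *Irg1*-/-, log2 ratios of 1.37 (1.236 to 1.495) and 2.17 (1.97 to 2.37). *Gzmf* differed most among the genes with at least 3 UMIs in each subset of both libraries, at 772 against 18.4 CPM and 361 against 9.68 CPM, log2 5.39 and 5.22. Its size rests on few cells, 4 of which held 50% of the *Gzmf* UMIs of the CD8 gate in each library, and the shares of cells with a *Gzmf* UMI after thinning were 19.4% against 2.80% and 22.4% against 4.62%. *Gzmc* (2.92 and 3.02), *Prf1* (1.76 and 1.99), *Gzmd* (2.74 and 4.92) and *Gzme* (2.41 and 4.37) went the same way. *Gzmd* and *Gzme* had only 1 and 2 UMIs in the memory-led cells of the library labelled *Irg1*-/-. *Gzmg* was at 2.45 in *Irg1*+/+ and had no UMI in the CD8 gate of the other library. *Gzma* did not follow: its log2 ratios were -0.19 (-0.36 to -0.02) and -0.11 (-0.44 to 0.22). *Gzmk* was lower in the checkpoint-led cells of *Irg1*+/+ by log2 -0.60 (-1.01 to -0.21), and its interval covered 0 in the other library. Both libraries thus placed *Gzmb*, *Gzmc*, *Gzmd*, *Gzme*, *Gzmf* and *Prf1*, but not *Gzma*, on the checkpoint-receptor side. The checkpoint-led cells were deeper, with medians of 3858 and 7034 UMIs against 3399 and 2675, and the part of depth in these ratios was not tested.

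Cycling CD8 cells (*Mki67* and *Top2a*; 85 and 51 cells) showed a similar split. *Gzmb* was log2 0.62 and 1.17 above non-cycling CD8 cells, *Prf1* 0.52 and 1.62 and *Gzmf* 2.26 and 1.64. *Gzma* was -0.51 (-0.69 to -0.35) in *Irg1*+/+ and -0.14 (-0.44 to 0.16) in the library labelled *Irg1*-/-. In Treg cells the sign of *Gzmb* was the opposite, with 1088 CPM in 27 cycling against 2336 CPM in 98 other cells of *Irg1*+/+ and 2040 against 2669 CPM in the other library (10 and 41 cells). These cycling cells were deeper, with medians of 6193 and 7723 UMIs in the CD8 gate. Cycling T cells thus carried more *Gzmb* than the other cells of the gate in the CD8 gate and less in the Treg gate, in both libraries. A difference between cells of one library rests on cells of one pool, and no replicate stood behind it.

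In the NK gate, cells led by *Itgam*, *Eomes*, *Klra4* and *Klra8* (186 and 374), markers of circulating NK cells, were set against cells led by *Itga1*, *Il7r*, *Cd200r1* and *Tmem176b* (36 and 32), markers of tissue-resident innate lymphocytes. *Gzma* was at 9284 against 2533 CPM and 11763 against 2619 CPM. *Gzmb* was higher in the former by log2 1.23 and 1.94 and *Prf1* by 1.05 and 2.45. *Gzmc* went the other way in *Irg1*+/+, at 171 against 545 CPM (log2 -1.67, -2.14 to -1.20), and was at 168 against 196 CPM, with an interval over 0, in the library labelled *Irg1*-/-. These *Gzmc* values rest on few cells, since the 66 and 26 UMIs of the second subset lay in 5 and 6 cells.

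**Figure D3:**
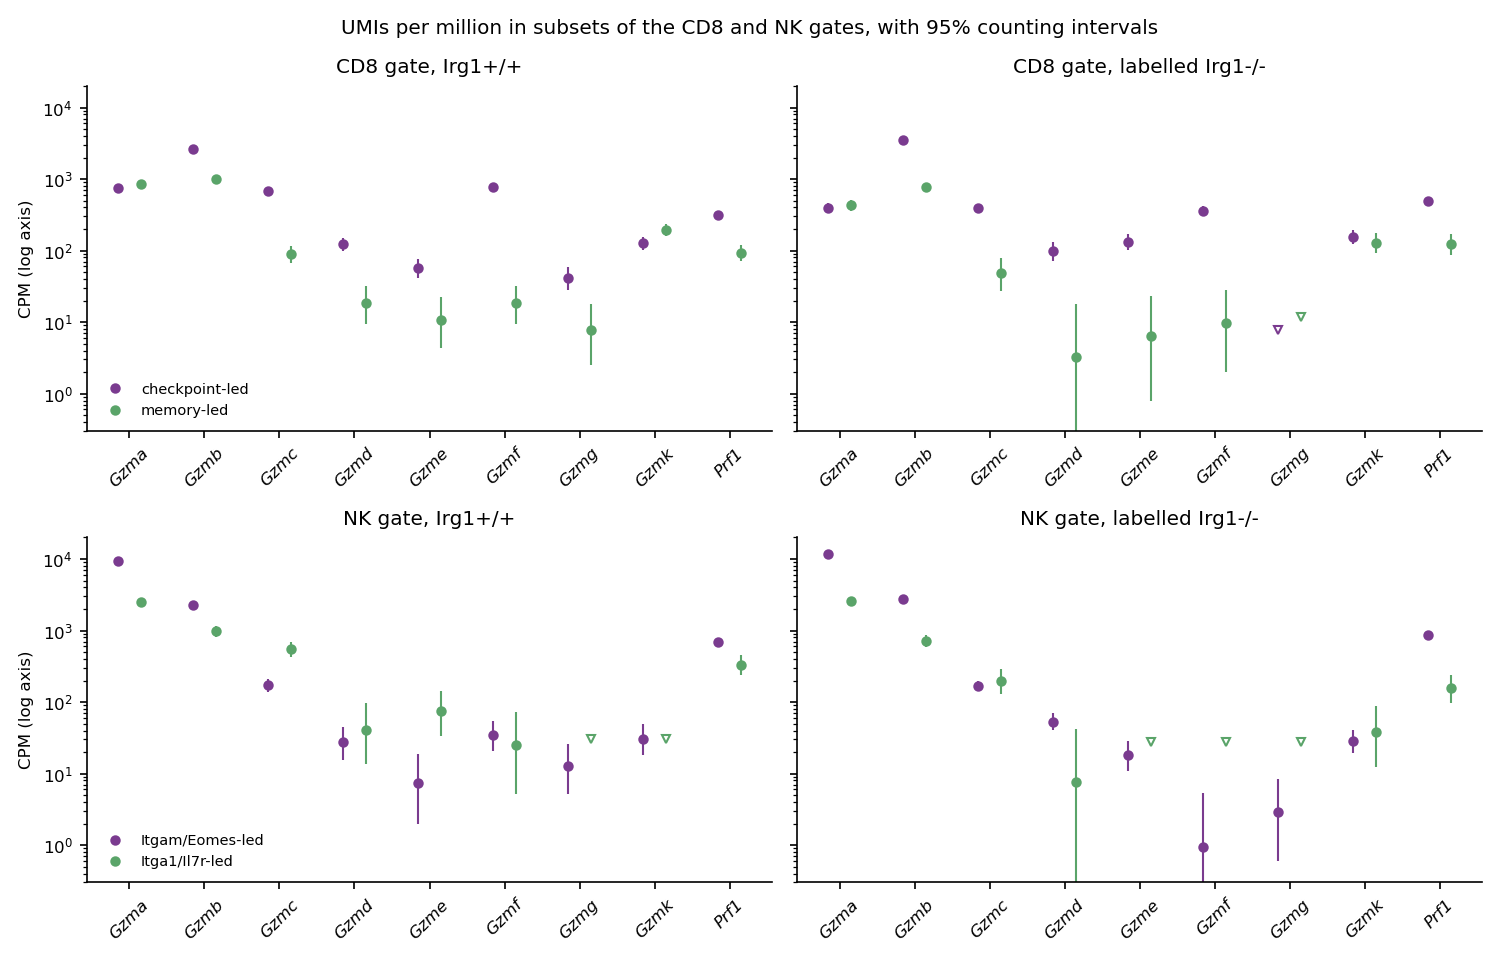
CPM (log axis) of the 9 genes in subsets of the CD8 gate (upper row, checkpoint-led in purple and memory-led in green) and of the NK gate (lower row, *Itgam*/*Eomes*-led in purple and *Itga1*/*Il7r*-led in green), with *Irg1*+/+ left and the library labelled *Irg1*-/- right; lines are exact 95% counting intervals, cut at the lower axis edge, and open triangles are upper limits where no UMI was found. In the CD8 gate the purple points of *Gzmb*, *Gzmc*, *Gzmd*, *Gzme*, *Gzmf* and *Prf1* lie above the green ones. Those of *Gzma* lie close together, and *Gzmk* lies lower in purple in *Irg1*+/+. In the NK gate *Gzma*, *Gzmb* and *Prf1* lie higher in purple.

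The next comparison set the library labelled *Irg1*-/- against *Irg1*+/+ within a gate. In the NK gate the leading effectors were modestly higher in the library labelled *Irg1*-/-: *Gzma* by log2 0.41 (0.37 to 0.46), *Prf1* by 0.35 (0.19 to 0.51) and *Gzmb* by 0.30 (0.21 to 0.39). *Gzmc* was at -0.48 (-0.78 to -0.17), but 3 cells held 50% of its UMIs in each library, and the ratio was 0.64 in a stricter gate and 0.17 in the depth-scaled gate. Of the 8 genes whose UMIs in both libraries came to 20 or more, 1 passed 2-fold, *Gzmf* at -5.31 from 23 UMIs and 1 UMI, beside 4.74% of the 8108 genes counted in that gate. After thinning and in the stricter gate 0 passed, because *Gzmf*, at -4.53 and -4.15, then had under 20 UMIs. No share of all genes stands beside those counts of 0, and they are not read as a result about the granule genes. The *Gzmf* level of 31.8 CPM in *Irg1*+/+ was that of the myeloid gate within counting error, and the myeloid level itself was at 29.2 and 5.27 CPM (-2.47). The median over the 8 genes was 0.18 and that over all genes -0.03. *Gzmd* at 0.66 (-0.09 to 1.45) rested on 1 cell, which held 56 of the 57 UMIs in the library labelled *Irg1*-/-.

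The depth-scaled NK gate had *Gzma* at 7954 and 9361 CPM and *Gzmb* at 2265 and 2422 CPM, and 4 of 9 genes (*Gzmd* to *Gzmg*) passed 2-fold there, all of them lower, beside 6.14% of 8650 genes. *Gzmf* had passed in the fixed gate too, at the myeloid level. The other calls rest on few cells: the *Irg1*+/+ gate went from 238 to 247 cells, while its UMIs went from 21 to 243 for *Gzmd*, from 15 to 126 for *Gzme* and from 8 to 27 for *Gzmg*. The ratio of *Gzmd* thereby went from 0.66 to -2.74. Other signals differed between the libraries in the NK gate as fixed: a list of melanoma genes led by *Dct* was at 133 and 32.9 CPM, and its part in these ratios was not tested.

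In the CD8 gate *Gzma* and *Gzmb* had opposite signs. *Gzma* was lower in the library labelled *Irg1*-/- by log2 -0.94 (-1.11 to -0.77), while *Gzmb* was higher by 0.38 (0.30 to 0.46) and *Prf1* by 0.74 (0.50 to 0.99). *Gzmc* (-0.49), *Gzmf* (-0.80) and *Gzmk* (-0.43) were lower. Of the 9 genes 2 passed 2-fold, *Gzme* at 1.29 (0.73 to 1.85), higher, and *Gzmg*, at least 6.38-fold lower against a floor of 3 UMIs, beside 5% of 8642 genes. *Gzmg* started from 23.7 CPM, 1.52 times (1.00 to 2.25) the myeloid level of *Irg1*+/+, and its myeloid level also went from 15.6 CPM to 0 UMIs. A few cells weighed heavily: 11 of 338 cells held 50% of the *Gzma* UMIs of the gate in *Irg1*+/+ and 9 of 169 in the other library, and thinned shares of cells with *Gzma* were alike at 31.2% (25.8 to 37.0) and 34.6% (26.5 to 43.5). Without cycling cells the *Gzmb* ratio was -0.04 and that of *Prf1* -0.06. In the depth-scaled CD8 gate *Gzma* was at 554 and 329 CPM, *Gzmb* at 2626 and 3868 CPM and *Prf1* at 386 and 506 CPM, and there 4 of 9 genes, *Gzmc*, *Gzmd*, *Gzmf* and *Gzmg*, passed 2-fold, all of them lower, beside 4.39% of 10082 genes. *Gzme* at -0.48 and *Gzmk* at 0.44 then had the opposite sign. That gate took in the 2 cells of *Irg1*+/+ described further on, and most of these calls rested on them. Without them 1 of the 9 genes passed 2-fold, *Gzmg* at -2.42, beside 4.205% of 10060 genes. *Gzmc* was then at -0.54, *Gzmd* at -0.74, *Gzmf* at -0.71 and *Gzme* at 0.72, the sign of the fixed gate. When the 2 cells with most *Gzmc* to *Gzmg* UMIs were left out of both libraries, *Gzmf* (-1.10) and *Gzmg* (-2.60) passed, beside 4.39% of 10044 genes. *Gzme* was then at -0.18 (-0.47 to 0.11).

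**Figure D4:**
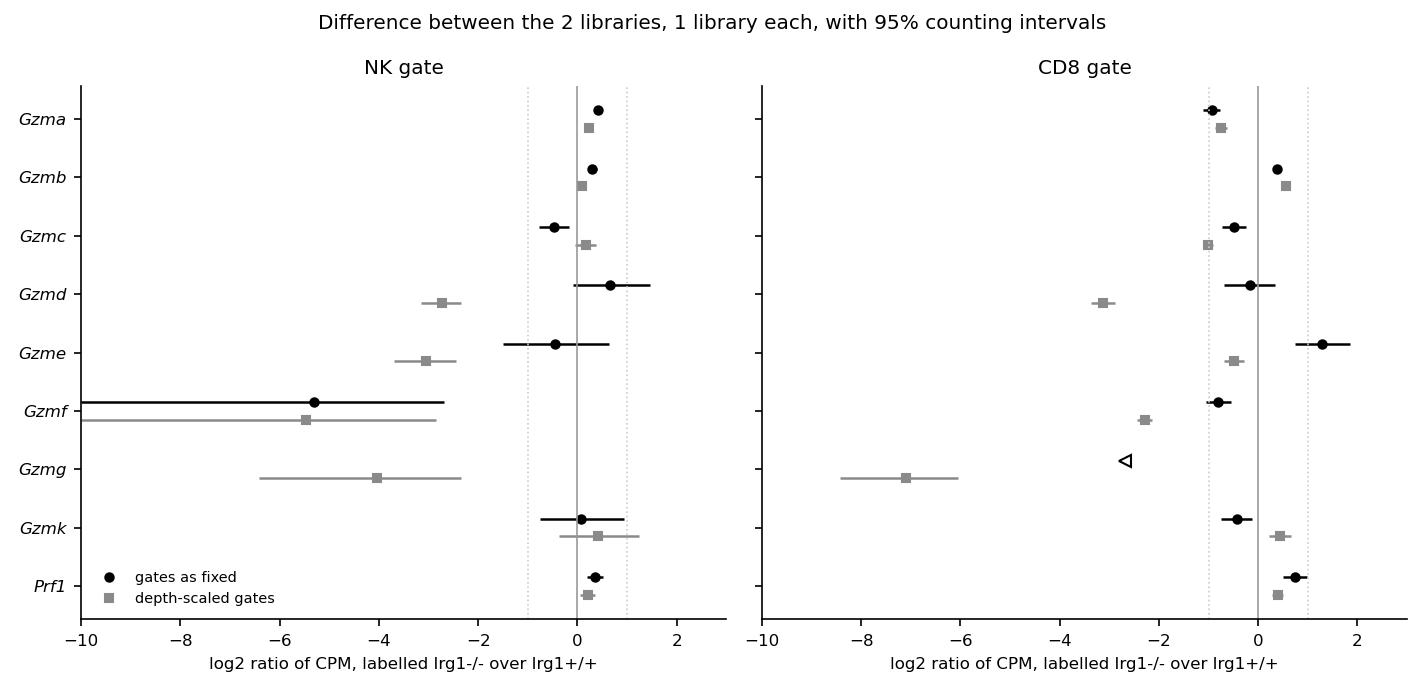
Log2 ratio of CPM, library labelled *Irg1*-/- over *Irg1*+/+, for the 9 genes in the NK gate (left) and the CD8 gate (right), black circles for the gates as fixed and grey squares for depth-scaled gates; lines are exact 95% counting intervals cut at the axis edges, dotted lines mark 2-fold, the open triangle is the bound where one library had no UMI, and *Gzmg* in the fixed NK gate is left out with under 20 UMIs. *Gzma* is above 0 in NK and below 0 in CD8 cells, *Gzmb* and *Prf1* are above 0 in both, and the genes from *Gzmc* to *Gzmg* depend on the gate.

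The remaining lymphocyte gates held fewer UMIs. In Treg cells *Gzmb* was higher in the library labelled *Irg1*-/- by log2 0.37 (0.22 to 0.53), and *Gzma* by 1.54 (0.90 to 2.19), the 1 gene of 4 counted that passed 2-fold, beside 8.88% of 5854 genes. The *Gzma* value rested on 41 and 45 UMIs, 14 of the latter in 1 cell, and *Gzma* in the myeloid gate was itself higher by 0.91. In the depth-scaled Treg gate 3 genes passed 2-fold, *Gzma* (1.27) higher and *Gzmd* (-2.35) and *Gzmf* (-1.82) lower, the latter pair from 2 and 3 UMIs in the library labelled *Irg1*-/-, beside 6.46% of 7121 genes. In CD4 cells 0 of 4 counted genes passed 2-fold, beside 8.2% of 4927 genes, and in the depth-scaled CD4 gate 0 of 4, beside 7.81% of 5146 genes. In T cells without *Cd4* or *Cd8* UMIs, 1 of 6 counted genes passed, beside 6.54% of 6777 genes: *Gzma* was at 258 and 684 CPM (log2 1.404), and *Gzmb* at 365 and 636 CPM (0.80).

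Over all kept cells, *Gzma* was at 389 and 865 CPM (log2 1.15, 1.13 to 1.18), *Gzmb* at 730 and 797 CPM (0.13, 0.10 to 0.15), *Prf1* at 100.3 and 123 CPM (0.29) and *Gzmk* at 23.8 and 24.9 CPM (0.07). At this level a change in the number of cells of a type and a change in mRNA per cell cannot be told apart, and the NK gate, where *Gzma* was highest, held 3.79% and 7.44% of cells. *Gzmc* to *Gzmg* were lower in the library labelled *Irg1*-/-: *Gzmc* by log2 -0.99, *Gzme* by -1.25, *Gzmf* by -2.40 and *Gzmd* by -3.16. *Gzmg* was at 59.8 CPM and 0.340 CPM, 2519 against 12 UMIs, the latter in 5 cells, a log2 ratio of -7.46 (-8.41 to -6.65). Of the 9 genes 5 passed 2-fold, *Gzma* higher and *Gzmd* to *Gzmg* lower, beside 7.48% of 14204 genes.

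Many UMIs of *Gzmc* to *Gzmg* lay in few cells. In *Irg1*+/+, 2 cells held 40.3% of the *Gzmd* UMIs, 41.7% of *Gzmf* and 63.7% of *Gzmg*. To reach 50% of the UMIs of a gene took 2 cells for *Gzmg*, 3 for *Gzmd*, 6 for *Gzmf*, 7 for *Gzme* and 25 for *Gzmc*, but 105 for *Prf1*, 107 for *Gzmk*, 135 for *Gzmb* and 137 for *Gzma*. In the library labelled *Irg1*-/- the numbers were 6 for *Gzmd*, 9 for *Gzme*, 14 for *Gzmf*, 24 for *Gzmc*, 64 for *Gzmk*, 113 for *Gzmb*, 145 for *Prf1* and 254 for *Gzma*. By this measure *Gzmc* to *Gzmg* were held by fewer cells than the other 4 genes in both libraries, and *Gzmc* was the broadest of them. The rest of the UMIs was spread widely for some of them. In *Irg1*+/+, 90% of the UMIs took 642 cells for *Gzmc*, 555 for *Gzmf* and 470 for *Gzmd*, more than the 394 for *Gzmk*. *Gzmg* took fewer, 287, as did *Gzme*, 231. In the other library *Gzmc* took 473 against 300 for *Gzmk*. There *Gzmf* took 156, *Gzme* 120, *Gzmd* 86 and *Gzmg*, with 12 UMIs, 4. Without the 2 cells of each library with most *Gzmc* to *Gzmg* UMIs, the log2 ratios were -0.88 for *Gzmc*, -2.46 for *Gzmd*, -1.24 for *Gzme*, -1.80 for *Gzmf* and -6.12 for *Gzmg*.

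**Figure D5:**
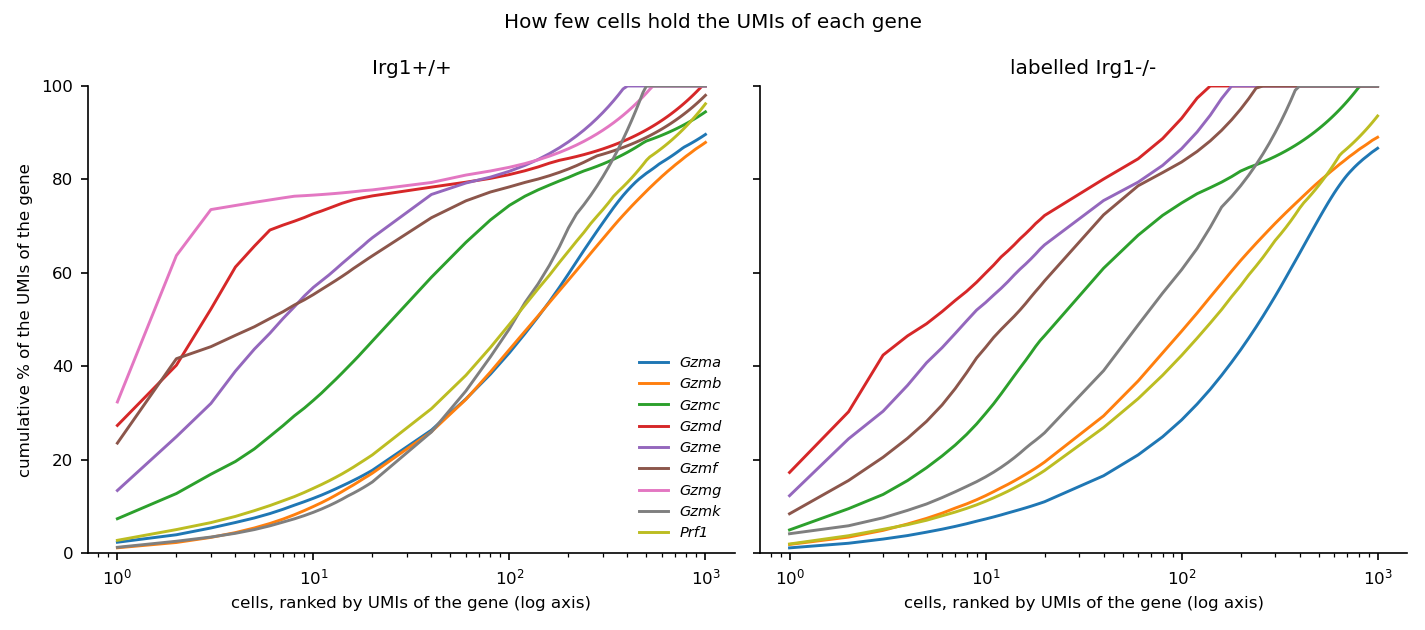
Cumulative percent of the UMIs of each gene against the number of cells, ranked from the cell with most UMIs (log axis), in *Irg1*+/+ (left) and the library labelled *Irg1*-/- (right, without *Gzmg*, which had 12 UMIs there). The curves of *Gzmg*, *Gzmd* and *Gzmf* in *Irg1*+/+ pass 40% within 2 cells, while *Gzma*, *Gzmb* and *Prf1* take over 100 cells to pass 50% in both libraries and *Gzmk* takes 107 and 64.

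The 2 cells at the top of *Irg1*+/+ lay outside the gates as fixed but inside the depth-scaled CD8 gate, which they entered with 3 UMIs of *Cd8a* in the first and with 1 of *Cd8a* and 2 of *Cd8b1* in the second. The first had 23239 UMIs, of which 3991 were from *Gzmc* to *Gzmg*: 1345 of *Gzmd*, 1312 of *Gzmf*, 789 of *Gzmg*, 331 of *Gzmc* and 214 of *Gzme*. The second had 26945 UMIs, of which 3230 were from those genes, led by 1004 of *Gzmf* and 816 of *Gzmg*. Their *Gzmb* UMIs were only 82 and 166 and their *Prf1* UMIs 118 and 97, so the downstream genes of the cluster outnumbered *Gzmb* in the same cell. *Trac* was nearly missing, with 3 and 1 UMIs, and *Ncr1* had none. Counts of the other T cell receptor chains are not given here. To enter the gate each cell needed at least 2 *Cd3* UMIs and more *Cd3* than myeloid UMIs. By contrast, *Fcer1g* (74 and 72), *Tyrobp* (41 and 64) and the interleukin receptor chain *Il2rb* (39 and 50), which signal in innate lymphocytes and, for the first pair, in myeloid cells, were plentiful. The next 2 cells, with 1347 and 793 such UMIs, had the same marker picture (*Trac* 2 and 1, *Fcer1g* 110 and 32) but 2 and 1 UMIs of *Gzmf*. The 4 cells were picked by these genes, so their granzyme counts are a description, and they were given no cell type name.

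Low levels of these genes in the myeloid gate also differed between the libraries. In the myeloid gate *Gzmd* was at 24.5 and 2.63 CPM, *Gzmf* at 29.2 and 5.27 CPM and *Gzmg* at 15.6 CPM and 0 UMIs (at least 41.5-fold lower against a floor of 3 UMIs), the 3 of 9 genes that passed 2-fold there, beside 3.42% of 11031 genes. UMIs of *Gzmd* were found in 961 cells of *Irg1*+/+ although 3 cells held 50% of them. Levels of *Gzmd* to *Gzmg* in the CD4 and Treg gates of *Irg1*+/+ and of *Gzmd*, *Gzmf* and *Gzmg* in its NK gate were about those of the myeloid gate, and the source of these UMIs was not tested.

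Genes with the nearest pattern over the 7 gates of both libraries (14 points that share libraries and depth, 10737 genes ranked by Pearson r of log2 CPM with 1 added) were as follows. *Gzmb* was most like *Cst7*, the cathepsin inhibitor cystatin F (r = 0.977), and *Nkg7*, a granule membrane protein (0.949), with *AW112010*, *Gm17745* and *Ak3* next. *Gzma* was most like the NK receptor genes *Klra8* (0.932), *Klra3* and *Klri2*, with *Spry2* and *Car2*. *Prf1* was most like *Arsb* (0.957), *Ier5l*, *Gzma* (0.916), *Xcl1* and *Fcrl6*, and *Gzmk* like *Eif3l* (0.881), *Eif3h*, *Rbm27*, *Dnajc15* and *Lyst*.

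In all, 5 lists with 46 other genes of the granule pathway were compared in the same way, and each count below stands beside 4.74% of all 8108 genes past 2-fold in the NK gate and 5% of 8642 in the CD8 gate, so that a count of 0 in so short a list is near the background. Among 9 other granule genes counted in the NK gate, 0 passed 2-fold: the granule proteoglycan *Srgn* was at 2173 and 2238 CPM and *Nkg7* at 1729 and 2210 CPM (log2 0.35, 0.26 to 0.45). None of the 9 counted genes of granule release passed in the NK or CD8 gates, among them *Rab27a*, which tethers granules, at 73.3 and 84.4 CPM in NK cells, and the syntaxin *Stx11* at 98.1 and 94.8 CPM. Of 5 serpins, inhibitors of granule proteases, 1 passed in both gates: *Serpinb9b* was at 152 and 465 CPM in NK cells (log2 1.61, 1.32 to 1.92) and at 23.7 and 130 CPM in CD8 cells. *Serpinb9*, the granzyme B inhibitor, was at 1862 and 1935 CPM in NK cells. *Serpinb9b* was thus the 1 serpin of 5 in the NK gate whose interval did not cover 0.

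Of 12 regulators, 0 passed 2-fold in the NK or CD8 gates. *Tcf7*, a factor of early NK and memory T cells, was at 351 and 180 CPM in NK cells (log2 -0.96, -1.23 to -0.70), *Tbx21* at 211 and 258 CPM and *Eomes* at 352 and 393 CPM. Of 8 other effector genes, 0 passed in either gate. *Ccl5*, a chemokine stored in lymphocytes, was at 5865 and 7768 CPM in NK cells (0.41, 0.35 to 0.46) and 4508 and 2621 CPM in CD8 cells (-0.78, -0.85 to -0.71), the signs of *Gzma* there, but at 1963 and 1542 CPM in CD4 cells and 604 and 560 CPM in myeloid cells, beside 146 and 169 CPM and 90.8 and 171 CPM of *Gzma*. *Xcl1*, which attracts dendritic cells, was lower in NK cells, at 853 and 538 CPM (-0.67). In Treg cells 5 of the listed genes passed, out of 9 other granule genes, 9 of granule release, 3 serpins, 11 regulators and 7 other effector genes counted there and beside 8.88% of all 5854 genes counted: *Gnptab* (2.21) and *Xcl1* (1.75) were higher and *Stx11* (-1.10), *Serpinb6a* (-1.13) and *Stat5a* (-1.12) lower, each from at most 119 UMIs in a library, and the interval of *Stat5a* covered 0. In the depth-scaled Treg gate *Stx11* (-0.96) and *Stat5a* (-0.42) did not pass and *Serpinb1a*, at -1.06 from 18 and 4 UMIs with an interval over 0, did, beside 6.46% of 7121 genes.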

How the data were processed

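Cd45+ cells of B16-F10 tumors were profiled in 2 BD Rhapsody libraries, and the authors deposited raw UMI counts per gene and cell. By the study's methods, reads were trimmed with fastp, barcodes were listed with UMI-tools and reads were aligned with STAR to the Ensembl mouse genome; the submitters' processing notes name GRCm38, CASAVA 1.8, Seurat and UMI-tools. Strand handling and the treatment of reads shared by near-identical genes are not given in the sources used here.

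Removing cells with 200 or fewer genes or with 10% or more mitochondrial UMIs, and after that all mitochondrial genes, left 42105693 and 35307041 UMIs. No annotation of cells was used; gates were rebuilt from UMIs of marker genes. NK cells had at least 2 UMIs of *Ncr1* and *Klrb1c*, T cells at least 2 of *Cd3d*, *Cd3e* and *Cd3g* and none of *Ncr1*, each with at most 1 UMI of myeloid (*Csf1r*, *Adgre1*, *Cd14*) and of B cell markers (*Cd79a*, *Ms4a1*). NK cells could also hold at most 1 *Cd3* UMI. CD8 cells had a *Cd8a* or *Cd8b1* UMI, CD4 cells a *Cd4* UMI and Treg cells a *Foxp3* UMI. Myeloid cells had at least 3 myeloid UMIs and none of the others. No doublet caller was run, and cells with mixed markers stayed ungated. In depth-scaled gates the excluding sums could reach the larger of 1 and 3 per 10000 UMIs of the cell, and T cells needed more *Cd3* than myeloid UMIs.

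For each gate of a library the UMIs of a gene were added up and divided by all UMIs of the gate (CPM). CPM have exact Poisson intervals, shares with Clopper-Pearson intervals and ratios exact conditional binomial intervals. Genes needed 20 UMIs over both libraries to be counted, and 2-fold was the size rule. With 1 library per group there was no test. The genes named were the 9 granule genes, 5 lists of other genes and the 5 genes nearest in pattern to *Gzma*, *Gzmb*, *Gzmk* and *Prf1*. Genes and lists were chosen with earlier results of these data known. The depth-scaled gates, the removal of 2 cells per library and the subtraction of myeloid CPM were added after seeing the data. Alternatives also included TMM and median-of-ratios scaling, thinning to 2000 UMIs, stricter gates and removal of cycling or very deep cells. Scripts were tested on simulated data. Python 3.11.15, numpy 2.4.6, scipy 1.17.1, pandas 2.3.3, matplotlib 3.10.9, R 4.3.3 and edgeR 4.0.16 (for TMM factors alone) were used.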

Additional observations from a re-analysis of the deposited data

Results flagged for a closer look

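The ratio of *Gzma* between libraries differed in sign between gates. It was log2 0.41 in the NK gate and -0.94 in the CD8 gate, a difference of 1.35, and -0.94 in the CD8 gate against 1.54 in the Treg gate, a difference of -2.47. Each library was 1 pool, so the difference between gates was not tested. *Gzma* in the myeloid gate was at 90.8 and 171 CPM, and the Treg value of 73.8 and 215 CPM lay close to it. With the myeloid CPM subtracted, the CD8 ratio was -1.46.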

How the results depend on the processing

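Of 140 alternative values of the main comparisons, 103 stayed close to the reported value, 37 moved and 0 changed sign; of 300 for single genes, 237 stayed, 55 moved and 8 changed sign. A change of sign was counted only where the interval of the reported value did not cover 0. The cause of the moves was not tested. Granule genes past 2-fold in the NK gate numbered 1 as reported, beside 4.74% of 8108 genes, and 4 in the depth-scaled gate, beside 6.14% of 8650. They numbered 0 after thinning to 2000 UMIs or in the stricter gate and 2 with no minimum of UMIs. In the CD8 gate they numbered 2, beside 5% of 8642 genes, then 1 after thinning and 4 in the depth-scaled gate, beside 4.39% of 10082. In the CD4 gate they numbered 0, beside 8.2% of 4927 genes, then 3 with no minimum. In the Treg gate they numbered 1, beside 8.88% of 5854 genes, and 3 in the depth-scaled gate, beside 6.46% of 7121. They numbered 2 by the mean of the CPM of each cell, 0 without cycling cells and 6 with no minimum. No share of all genes stands beside the counts under thinning, the stricter gate, the mean of cells, removal of cycling cells or no minimum. Those counts are therefore not read as a result about the granule genes. The median log2 ratio in the CD8 gate was -0.43, -0.041 in the stricter gate and -0.75 in the depth-scaled gate.

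The summed level over the myeloid gate (log2, mean of both libraries) was 5.29 in NK cells, 5.20 by the mean of cells, 5.47 in the stricter gate and 5.41 over B cells. In CD8 cells it was 3.63, with 3.43 by the mean of cells, 3.44 after thinning, 3.72 under 5% mitochondrial UMIs, 3.19 without cycling cells, 3.75 over B cells and 4.29 in the depth-scaled gate. In Treg cells it was 2.93, with 3.18 after thinning, 3.09 without cycling cells, 3.05 over B cells and 2.63 in the depth-scaled gate. The share of granule UMIs in the NK gate of *Irg1*+/+ was 10.7%, with 24.5% after thinning, 11.03% under 5% mitochondrial UMIs, 3.70% in the stricter gate, 22.8% without cycling cells, 15.7% without cells above 20000 UMIs and 13.1% in the depth-scaled gate. In the library labelled *Irg1*-/- it was 25.7%, with 43.0%, 9.54% in the stricter gate, 41.0% without cycling cells, 32.0% without cells above 20000 UMIs and 28.9% in the depth-scaled gate, the first of these after thinning. It was higher in the library labelled *Irg1*-/- under each of these settings.

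By that rule these single genes changed sign. *Gzmc* in the NK gate was 0.64 in the stricter and 0.17 in the depth-scaled gate. In the CD8 gate *Gzmb* was -0.041 and *Prf1* -0.056 without cycling cells, and *Gzme* was -0.48 and *Gzmk* 0.44 in the depth-scaled gate and -0.18 and 0.39 there without the 2 cells of each library with most *Gzmc* to *Gzmg* UMIs. Ratios whose interval covered 0 also took the other sign under some settings, among them *Gzmd* in the NK gate, from 0.66 to -2.74 in the depth-scaled gate, -0.58 by the mean of cells and -0.28 after thinning. No paired analysis was possible because each genotype was 1 library of pooled mice, and no replicate could be left out. Counts under 20 UMIs and genes held by a few cells limit what the depth can show.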

Other observations

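T cells without *Cd4* or *Cd8* UMIs numbered 207 and 140, of which 61 and 49 carried gamma delta receptor genes. In cycling Treg cells of the library labelled *Irg1*-/- *Gzma* was at 382 CPM in 10 cells against 147 CPM in 41 other Treg cells, and in *Irg1*+/+ at 64.6 CPM against 78.4 CPM. Cycling NK cells (12 and 25) had *Gzma* at log2 0.24 against other NK cells in *Irg1*+/+ and at -0.43 in the library labelled *Irg1*-/-. *Gzmn* had no UMI in the NK, CD8 and Treg gates of either library.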
